A study of Homo sapiens with 4 samples.

Results

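Expressed genes of the human melanoma cell line A375 were compared between a library from cells given siLINC01291, which targets the long non-coding RNA LINC01291, and a library from cells given siNC, named as the negative control siRNA. A gene was taken as expressed at an FPKM (fragments per kilobase of transcript, scaled to library size) of at least 1 in either A375 library, which held for 13244 of the 18175 genes and loci in the table and left 4931 under the minimum. Some genes reached this minimum in only 1 library, the one where they were higher, and counts of higher or lower genes include them. Each treatment is 1 library, so no difference has a replicate check, and values are given as higher or lower with an interval that covers counting error only. The study treated a second melanoma line, SK-MEL-28, in the same way, again with 1 library each. All cells grew in Dulbecco's modified Eagle medium with fetal bovine serum. The treatment label of every library also names EL, which it does not explain, and the dose, time and number of siRNAs are not stated in the labels.

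Long non-coding RNAs are transcripts that are not translated, and many act in the nucleus or as binding partners of proteins and other RNAs. An siRNA guides Argonaute proteins to transcripts by base pairing and leads to their cleavage or decay. Several gene programmes described below are textbook features of melanoma cells: the lineage factors SOX10 and MITF drive pigment cell genes, a dedifferentiated state expresses matrix, AXL and YAP target genes, and the transcription factor ATF4 turns on amino acid synthesis, amino acid import and tRNA charging when amino acids run short or the endoplasmic reticulum (ER) is stressed.

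The targeted transcript was lower in the siLINC01291 library. LINC01291 (ENSG00000204792, chromosome 2, 74918148 to 74938418 on the + strand in GENCODE 29 on GRCh38) had 827 counts with siNC and 304 with siLINC01291, an FPKM of 6.39 and 2.28. This left 34.5% of the normalised siNC level (exact binomial 95% interval 30.2 to 39.4%). LINC01293 (ENSG00000230836), the neighbouring lincRNA on the same strand, had a normalised CPM of 38.7 and 10.8 (FPKM 32.1 and 9.28). Its log2 ratio of siLINC01291 to siNC was -1.83 (interval -2.01 to -1.67), against -1.53 (-1.73 to -1.34) for LINC01291. The libraries held 30879719 counts (siNC) and 31815336 (siLINC01291) in the table, with 12643 and 12838 genes at the FPKM minimum. Of the 13244 expressed genes, 10618 are protein coding, 377 are lincRNAs and 443 antisense RNAs in GENCODE 29, and 1218 carry an identifier only or are loci assembled by the authors. GOLGA6L9 (FPKM 0.908 and 1.00) and ENSG00000268047 (1.00 and 0.971) lay just inside the minimum, and ENSG00000237950 (0.842 and 1.00 after rounding) and MIR580 (0.999 and 0, on 3 and 0 counts) just outside it.

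The melanoma label was checked against lineage markers. SOX10 was abundant (FPKM 80.1 with siNC and 118 with siLINC01291). PRAME (31.6 and 25.8), MITF (5.68 and 5.48) and S100B (3.47 and 5.69) were present. The pigment enzymes and melanosome proteins TYR (0.112 and 0.0846), TYRP1 (0.147 and 0.0503), DCT (0.390 and 0.486) and MLANA (0.830 and 0.774) stayed under an FPKM of 1. These pigment genes were chosen after their values were seen. PAX3 and PMEL, also on the marker list, are not given here, so the check covers only part of that list. In all, 18 of the 35 listed members of a list of 36 melanoma identity genes were expressed. Of markers of other cell types, 2 of 9 fibroblast genes are listed in the table (summed FPKM 4.81 and 5.56), 3 of 8 keratinocyte genes (33.4 and 35.2, mostly KRT10), 2 of 9 leukocyte genes (1.96 and 2.56) and 1 of 6 endothelial genes. That last gene, KDR, the VEGF receptor, had an FPKM of 0.784 and 2.37, and the endothelial markers PECAM1, CDH5, VWF, TEK and CLDN5 are not listed. As in any bulk sample, fewer cells of a kind and less RNA per cell cannot be told apart in what follows.

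Genes with lower values shared short words in their 3' UTRs. Words of 7 bases were compared by the mean log2 ratio of genes with and without them, over 15442 words and 10392 genes with a searched 3' UTR. CTATGAA (1095 genes) went with the lowest mean, 0.16 below the other genes on the log2 scale, and TCTATGA (869 genes) came second at 0.15 below. The third word, ACTATGA, stood at 0.07 below. The first and second overlap in the joined word TCTATGAA. Windows of 30 bases around the joined word are shown for LINC01291 and for 8 genes with low ratios in A375, 5' to 3' on the strand of the transcript, read from GRCh38 with GENCODE 29, and the joined word is in capitals.
LINC01291: ggtgtctggacTCTATGAAgaatcttcatg
SLC7A11: attaggtactaTCTATGAAtgtatttaaat
ATP6V1G1: caggggctttaTCTATGAAaaagtagtaaa
PDIA6: cattgaaaaatTCTATGAAttgttgtagcc
MT2A: atattccttttTCTATGAAataatgtgaat
SDHD: tgaaaatgtatTCTATGAAaataatttttt
WWTR1: aaataattctaTCTATGAAactgaaggatg
ALDH1L2: tccaaacttttTCTATGAAtatgtatactt
MYH9: ggccagagtttTCTATGAAtctatttttct
The windows lie at chr4:138165040-138165069 (- strand, SLC7A11), chr9:114598138-114598167 (+, ATP6V1G1), chr2:10784051-10784080 (-, PDIA6), chr16:56609444-56609473 (+, MT2A), chr11:112095723-112095752 (+, SDHD), chr3:149519408-149519437 (-, WWTR1), chr12:105019891-105019920 (-, ALDH1L2) and chr22:36282302-36282331 (-, MYH9). The 3 annotated LINC01291 transcripts hold the joined word once each, and the LINC01293 transcript does not hold it. The sources used here give no siRNA sequence, so whether the siRNA pairs with this word was not tested. On the sense strand, CTATGAA is present in 9.69% of all 18458 searched 3' UTRs, TCTATGA in 7.83% and the joined word in 3.31%.

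Most expressed genes differed little between the libraries. Log2 ratios had a median of -0.01, an SD of 0.34 across genes and a 5th to 95th percentile range of -0.51 to 0.52. Of the 13244 genes, 123 (0.929%) stood 2-fold or more above siNC with siLINC01291 and 140 (1.06%) 2-fold or more below it. Counting intervals alone are narrow at this depth: they lay below 1 for 3422 genes and above 1 for 3025. For 19 of the 123 the whole interval lay beyond 2-fold, and for 32 of the 140.

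**Figure D1:**
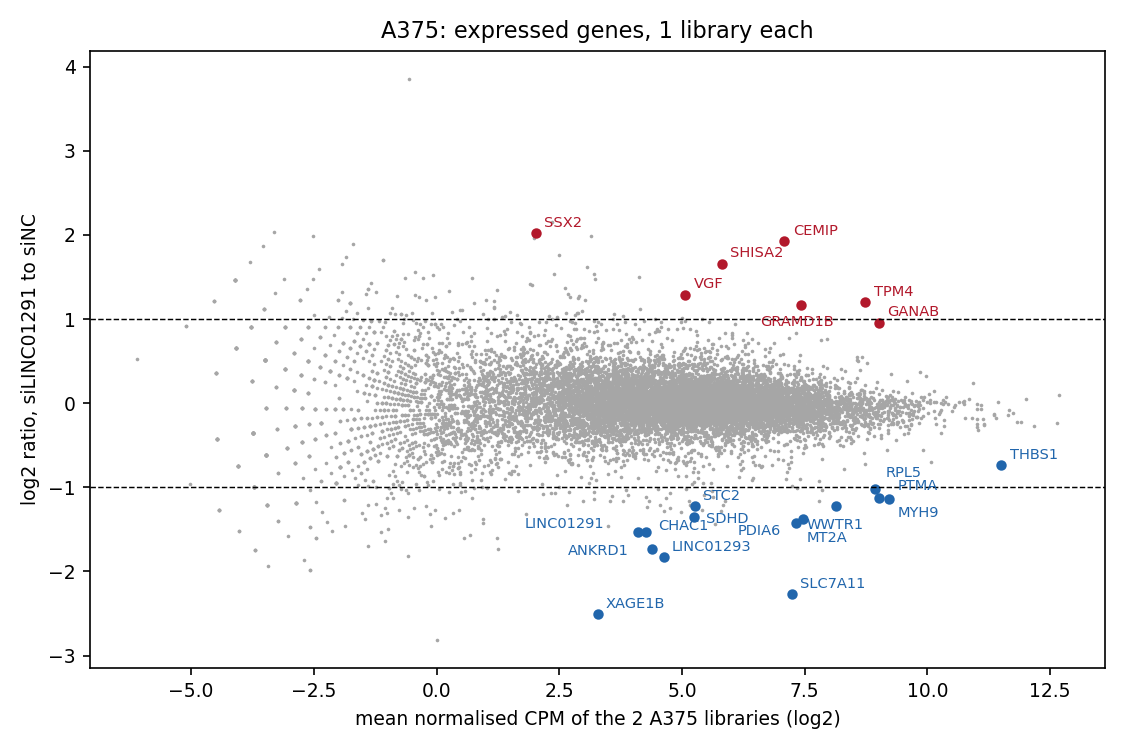
Log2 ratio of siLINC01291 to siNC (y axis) against the mean normalised CPM of both A375 libraries (x axis, log2) for the 13244 expressed genes, with genes named in the text coloured and dashed lines at 2-fold. The cloud widens at low counts, and at higher levels more genes lie beyond the lower dashed line than beyond the upper.

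The 2-fold counts depended on the level, taken as the higher FPKM of the libraries. At an FPKM of 1 to 5, 112 of 5825 genes were 2-fold higher and 95 lower. Between 5 and 20 the counts were 8 and 32 of 4953, between 20 and 100 they were 3 and 10 of 2124, and at 100 or more 0 and 3 of 342. Among genes at an FPKM of 5 or more, the 2-fold differences were thus mostly towards lower values. Protein-coding genes made up 39 of the 123 and 54 of the 140, against 10618 of all 13244 expressed genes. Most of the 2-fold genes in either direction were thus not annotated as protein coding, whereas most genes named below are.

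The lowest ratios among genes at an FPKM of at least 5 belonged to genes of several functions. The gene for XAGE1B, a cancer-testis antigen, had 539 counts with siNC and 99 with siLINC01291 (log2 ratio -2.51, interval -2.86 to -2.22). It has near-identical copies and is uncertain, and XAGE1A (-0.09) was chosen after its values were seen. SLC7A11, which imports cystine for glutathione synthesis, had 8148 and 1798 counts (FPKM 27.3 and 5.84, log2 ratio -2.27, interval -2.35 to -2.20). ANKRD1, an ankyrin repeat protein and a classic YAP target, had 1041 and 333 counts (FPKM 18.8 and 5.83, -1.73). CHAC1, which degrades glutathione and is induced by ATF4, had 928 and 340 counts (FPKM 14.6 and 5.19, -1.53). These shifts are well beyond the counting error, and nothing in the files measures how far untreated A375 cultures would differ from each other.

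Further genes among the 20 lowest followed. ATP6V1G1, a subunit of the vacuolar proton pump, had 2410 and 949 counts (log2 ratio -1.43). PDIA6, a disulfide isomerase of the ER, had 7583 and 3017 counts (-1.42). SDHD, which anchors succinate dehydrogenase in the inner mitochondrial membrane, had 1767 and 735 (-1.35). All 3 hold the joined word. GINS1, a subunit of the replicative helicase complex, had 2552 and 1119 counts (-1.28), PRKACB, a catalytic subunit of protein kinase A, 1142 and 501 (-1.28), and NFYC, a subunit of the CCAAT-binding factor, 1966 and 866 (-1.27). SMIM13, a small membrane protein, stood at -1.30. GINS1 and PRKACB hold the joined word as well, and NFYC and SMIM13 a 7-base word. ESM1 (endocan, a secreted proteoglycan) and STC2 (the secreted glycoprotein stanniocalcin 2) were both at -1.23, and neither holds one of the words. Neither was expressed in SK-MEL-28 (0 and 0 counts for ESM1, 21 and 27 for STC2). Among short RNAs the values rest on few reads: SNORD69 had 25 and 8 counts, MIR7111 18 and 6, and MIR6772 10 and 3, and the interval of MIR6772 (-4.33 to 0.13) includes no difference. MT2P1 (92 and 35 counts) is a pseudogene related to MT2A, with which it can share reads.

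Among genes at an FPKM of at least 5, CEMIP, SHISA2 and VGF had the highest ratios. Genes at lower levels reached similar ratios, SSX2 (2.02) and PCSK1 (1.97) among them. CEMIP, a protein of hyaluronan degradation, had 1843 counts with siNC and 7469 with siLINC01291 (FPKM 7.81 and 30.7, log2 ratio 1.93, interval 1.85 to 2.00). SHISA2, a membrane protein that holds back Wnt and FGF receptors, had 879 and 2961 counts (FPKM 7.38 and 24.1, 1.66). VGF, a neuropeptide precursor, had 631 and 1649 counts (FPKM 7.60 and 19.3, 1.29). TPM4, a tropomyosin of the actin cytoskeleton, had 8415 and 20621 counts (FPKM 22 and 52.2, 1.20). GRAMD1B, a cholesterol transfer protein at ER contact sites, had 3458 and 8292 counts (FPKM 7.47 and 17.4, 1.17). For comparison, in SK-MEL-28 TPM4 had a log2 ratio of 1.73, CEMIP of 0.53 and VGF of 0.44, while GRAMD1B (FPKM 0.175 and 0.237) and SHISA2 (6 and 8 counts) were under the expression minimum there. Those differences between the lines have no replicate and were not tested.

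Beneath these, the cytokine IL11 went from 684 to 1477 counts (1.02), the inner mitochondrial membrane protein FAM210B from 919 to 1964 (1.00), and the glucosidase II subunit GANAB from 11429 to 23647 (0.96). CDK14 (0.98), a cyclin-dependent kinase linked to Wnt signalling, STX12 (0.97), an endosomal syntaxin, and FAM114A1 (0.98) were close behind. XYLT1, which adds the first sugar of glycosaminoglycan chains, stood at 0.97 (FPKM 2.99 and 6.05) and the syndecan SDC3 at 0.94 (6.89 and 13.6). RAMP1 (0.97), a partner of calcitonin-type receptors, MAF (0.90), a transcription factor, SEMA6B (0.89), a semaphorin, and the receptor GPR153 (0.88) were also among the 20 highest, as were SPCS2P4 (1.27) and COSMOC (1.21). SPCS2P4 is a processed pseudogene and COSMOC an antisense RNA, and both are uncertain because strand-specific counting is not stated. SPCS2P4 is uncertain also because a pseudogene can share reads with a related gene, as for MT2P1.

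**Figure D2:**
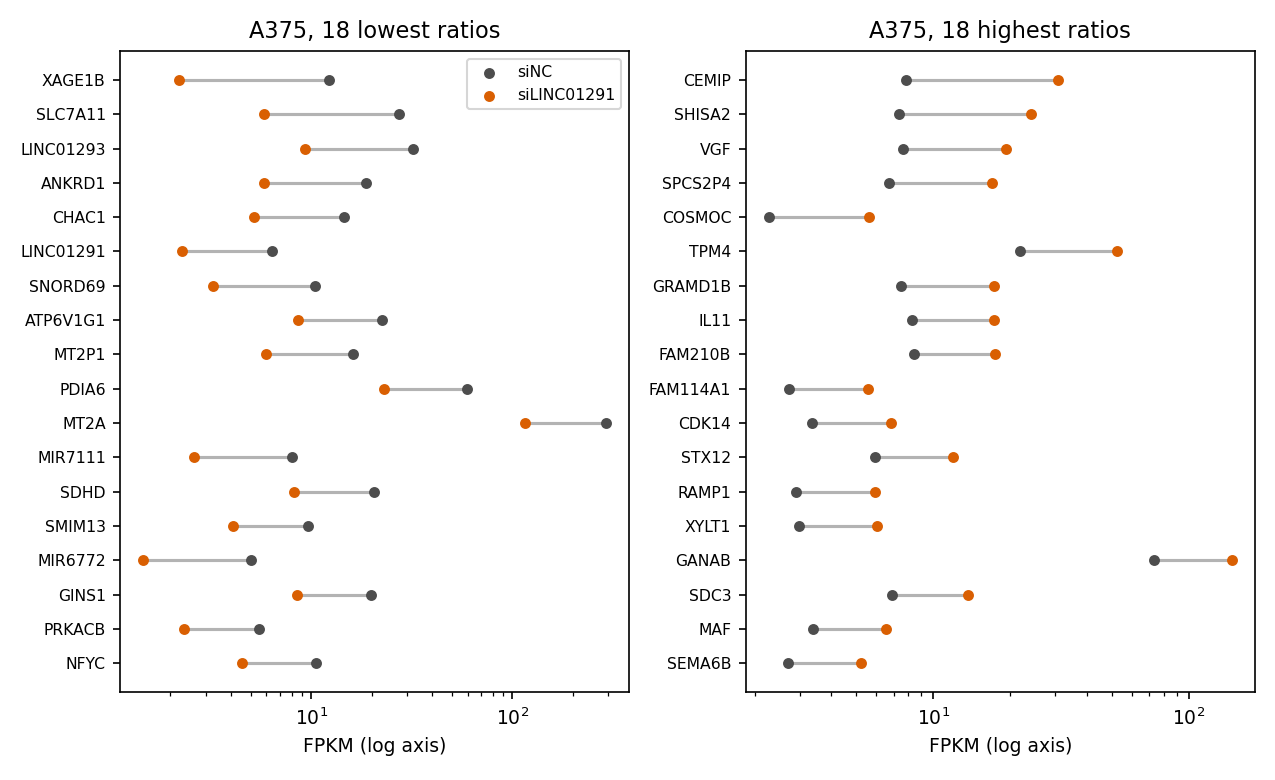
FPKM (log axis) with siNC (grey points) and siLINC01291 (orange points) for the 18 genes with the lowest log2 ratios (left) and the 18 with the highest (right) among A375 genes at an FPKM of at least 5, ordered from the most extreme at the top. SLC7A11 went from 27.3 to 5.84 and CEMIP from 7.81 to 30.7.

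The 3' UTR words divided the genes by ratio. Since the words were picked on these ratios, the class values are a description. Genes with neither leading word (8896) had a median log2 ratio of 0.01, genes with a 7-base word but not the joined word (1123) of -0.06, and genes with the joined word (373) of -0.18. At least 2-fold lower were 0.236% of the first class, 0.980% of the second and 5.63% (21 genes) of the third. At least 1.5-fold lower were 1.02, 4.63 and 17.2%, beside 3.94% of all expressed genes and 1.99% of all searched genes. None of the 373 genes with the joined word was 2-fold higher, a count near the share of all searched genes that were (0.356%).

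**Figure D3:**
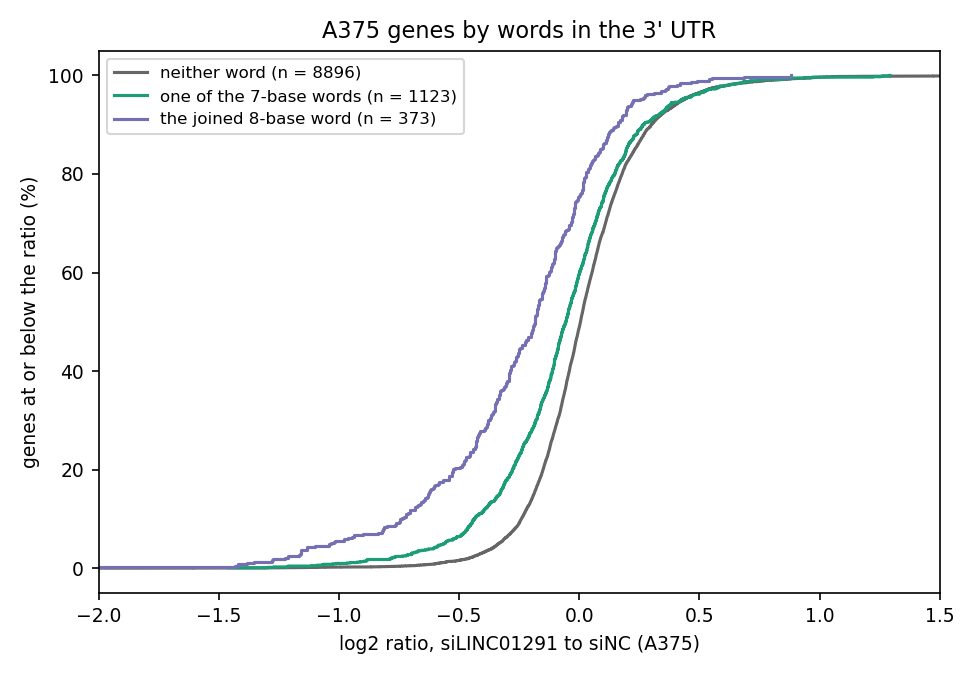
Percent of A375 genes at or below each log2 ratio of siLINC01291 to siNC, for genes whose 3' UTR holds neither leading word (grey, 8896 genes), a 7-base word only (green, 1123) or the joined word (purple, 373). The purple curve lies to the left of the grey one over most of its length, with medians of -0.18 and 0.01.

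Copies and position of the joined word went with different medians. The 352 genes with 1 copy had a median of -0.18 and the 21 genes with 2 or more of -0.35, and the latter had longer 3' UTRs (median 5427 bases against 2975). Genes with the joined word in a 3' UTR under 1000 bases (43) had a median of -0.30, against -0.18 in longer ones (330), and genes of the same lengths without either word had medians of -0.01 and 0.02. Where the joined word lay only in the coding sequence (338 genes), the median was -0.08. Of 53 searched genes that were 2-fold lower, 32 (60.4%) hold either word, as do 14.4% of all searched genes. Conversely, 2.14% of the 1496 genes with either word were 2-fold lower, so most genes with a word did not differ by that much. The other 21 lower genes, ANKRD1, CHAC1, ESM1, STC2, CXCL8 and GDF15 among them, hold neither word. Of 37 searched genes that were 2-fold higher, 4 hold either word. STX12 (0.97), ITGA1 (0.71), ITGB8 (0.62) and GPX1 (0.26) lay above 0 and hold a 7-base word. The highest mean belonged to TCGGAGA (0.13 above the other genes, 193 genes, 1.73% of all searched 3' UTRs). It was present in 2 of 37 searched genes that were 2-fold higher, and the 193 genes had a median of 0.10.

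Genes of the ATF4 and amino acid stress programme were lower in nearly all cases. Of 43 genes on the list, 40 were expressed. None was at least 1.5-fold higher and 8 were at least 1.5-fold lower, where 3.95 and 3.94% of all expressed genes were (523 and 522 genes). Of the 8, VLDLR reached the FPKM minimum only with siNC (1.04 and 0.499). The median log2 ratio was -0.37, against -0.01 over all expressed genes, and 38 of 40 lay below 0, as did 51.3% of all expressed genes. Counting intervals lay wholly below 1 for 37 of the 40 (92.5%), against 25.8% of all expressed genes. The members share 1 pair of libraries, so they are not replicates of each other. This list, like the others, was written by hand with earlier results of these data known, so its counts are a description.

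Among amino acid transporters of the list, SLC7A11 had the lowest ratio, while SLC7A5, the leucine transporter subunit and the most abundant member, went from an FPKM of 606 to 570 (-0.14). The glutamine carrier SLC1A5 (FPKM 104 and 78.5, -0.45), SLC38A2 (88.0 and 69.2, -0.39) and SLC3A2, the heavy chain that pairs with SLC7A11 and SLC7A5 (138 and 118, -0.27), were chosen after their values were seen. In the one-carbon and serine pathway, ALDH1L2 went from 1595 to 760 counts (-1.16), PSAT1, the serine synthesis aminotransferase, from an FPKM of 239 to 164 (-0.59), and MTHFD2, the mitochondrial folate enzyme, from 26.1 to 17.1 (-0.66). PHGDH (-0.32), PSPH (-0.35) and SHMT2 (-0.29) were lower by less. MTHFD2, PHGDH, PSPH and SHMT2 were chosen after their values were seen. The tRNA synthetase genes NARS1 (-0.51), GARS1 (-0.45), CARS1 (-0.43), SARS1 (-0.41), WARS1 (-0.22) and AARS1 (-0.13), chosen in the same way, all lay below 0.

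The regulators of the programme were lower by modest amounts. ATF4 itself went from 12800 to 11030 counts (FPKM 158 and 132, log2 ratio -0.31, interval -0.34 to -0.27). Its partner CEBPG stood at -0.51, the stress factors DDIT3 and ATF3 at -0.34 and -0.27, and the feedback gene TRIB3 at -0.26, all named after their values were seen, as was ATF4. CEBPB, a leucine zipper factor that pairs with ATF4, went from 1850 to 1017 counts (-0.95) and VLDLR, a lipoprotein receptor, from 531 to 263 (-1.10). DDIT4, an mTORC1 inhibitor chosen after its values were seen, was the member with the highest ratio (FPKM 72.7 and 84.8, 0.17). Of 40 members, 7 hold a leading 3' UTR word, among them 4 of the 8 that were 1.5-fold lower (SLC7A11, ALDH1L2, VLDLR and CEBPB). The 33 others had a median of -0.32, with 4 at least 1.5-fold lower: CHAC1, STC2, MTHFD2 and PSAT1.

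**Figure D4:**
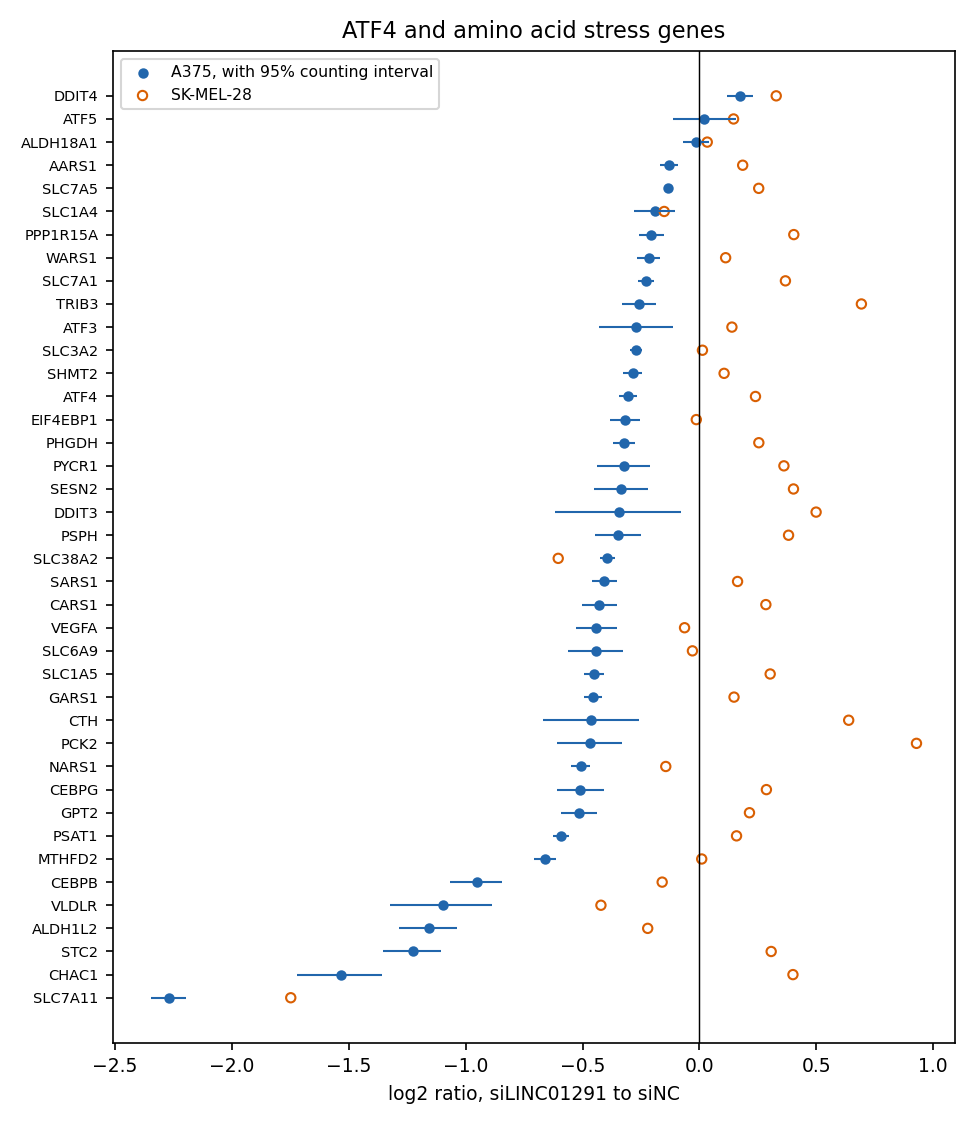
Log2 ratio of siLINC01291 to siNC (x axis) for the 40 ATF4 and amino acid stress genes expressed in A375 (blue points, bars are 95% counting intervals), with the SK-MEL-28 ratio of the same gene as an open circle. In A375 38 of 40 points lie below 0, down to -2.27 for SLC7A11, while most SK-MEL-28 circles lie above 0.

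In SK-MEL-28 the same list stood on the other side of 0. Its median there was 0.18 over 39 expressed members, with 3 at least 1.5-fold higher (6.32% of all genes expressed in that line) and 2 at least 1.5-fold lower (5.08%). Over 38 members expressed in both lines, the medians were -0.35 in A375 and 0.17 in SK-MEL-28. Of these, 27 (71.1%) lay below 0 in A375 and above 0 in SK-MEL-28, as did 18.1% of all 10988 genes expressed in both, and 0 of the 38 lay the other way round. CHAC1 stood at -1.53 and 0.40, TRIB3 at -0.26 and 0.69, and PCK2, a gluconeogenesis enzyme of mitochondria, at -0.47 and 0.93; TRIB3 and PCK2 were chosen after their values were seen. SLC7A11 was lower in both (-2.27 and -1.75). The difference between the lines has no replicate and was not tested.

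The promoters of the programme were searched for TGATGNAA or its reverse complement TTNCATCA, core forms of the CCAAT-enhancer-binding protein and ATF response element that ATF4 binds, a motif chosen after the values were seen. In the RefSeq promoter sequences (GRCh38.p14, 250 bases before to 50 after the start), it was present in 7 of the 32 matched members (21.9%), in 1.65% of 8967 matched expressed genes and in 3.67% of all 27305 promoters. The list was written by hand as ATF4 programme genes, so a higher share can come from how it was made and says nothing about these libraries. Members with the motif had a median log2 ratio of -0.27 and those without it of -0.39. The promoter of CHAC1, the member with the motif that had the lowest ratio, lies at chr15:40953221-40953520 on the + strand and is shown with the motif in capitals.
CHAC1: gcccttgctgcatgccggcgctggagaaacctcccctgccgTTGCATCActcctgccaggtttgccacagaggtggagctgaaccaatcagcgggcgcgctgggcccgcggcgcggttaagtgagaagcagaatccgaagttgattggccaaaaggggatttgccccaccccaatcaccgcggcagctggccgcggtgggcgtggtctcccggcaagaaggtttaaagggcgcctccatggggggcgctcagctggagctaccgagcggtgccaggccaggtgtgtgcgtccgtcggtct
A match is a string of letters and not a measured binding site, and other forms of the element were not searched.

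Antioxidant genes split. The NRF2, glutathione and thioredoxin list had 39 expressed members, with a median of -0.05. At least 1.5-fold, 0 were higher and 4 lower (SLC7A11, SRXN1, TXNRD1 and OSGIN1). Over all expressed genes, 3.95% were higher and 3.94% lower by that much, the shares to set beside the A375 list counts that follow. TXNRD1, the cytosolic thioredoxin reductase, went from 43474 to 28475 counts (FPKM 209 and 133, -0.70, interval -0.72 to -0.68). SRXN1, which repairs overoxidised peroxiredoxins, went from 164 to 69 counts (-1.31) and OSGIN1, an oxidative stress response gene, from 740 to 516 (-0.61). SRXN1 reached the FPKM minimum only with siNC (2.09 and 0.855). Glutathione reductase (GSR) stood at -0.41, while GPX1, a glutathione peroxidase, went from an FPKM of 143 to 177 (0.26) and the ferritin light chain gene FTL from 1816 to 1761 (-0.09).

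Of 8 expressed members of the metallothionein and zinc transport list, 3 were at least 1.5-fold lower (3.94% of all expressed genes were) and 0 higher. All 3 hold the joined word, and 17.2% of all genes with that word were 1.5-fold lower. MT2A, the main metallothionein here, went from 8271 to 3380 counts (FPKM 292 and 116, log2 ratio -1.38). The zinc importers SLC39A14 and SLC39A10 stood at -0.82 and -0.65. The other 5 lay above 0, among them the importer SLC39A6 (0.35), the exporter SLC30A1 (0.28) and the metal-sensing factor MTF1 (0.23).

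Transcripts of the mitochondrial genome were lower as a set. All 13 protein genes lay below 0, as did 51.3% of all expressed genes, with a median of -0.27. At least 1.5-fold lower was 1 (3.94% of all expressed genes were). The counting interval lay below 1 for 12 of them, against 25.8% of all expressed genes, but intervals are narrow at such high counts. MT-CO3, the most abundant by FPKM, went from 134632 to 123273 counts (-0.22). MT-ATP8 had the lowest ratio (7207 and 4124 counts, -0.90), but it overlaps MT-ATP6 (-0.32) and is uncertain. MT-ND5 (chosen after its values were seen) had the ratio nearest 0 (-0.01). Their summed FPKM was 35396 with siNC and 30309 with siLINC01291. The SK-MEL-28 median was -0.06. Nuclear respiratory chain genes had a median of -0.01 over 39 members, with SDHD (-1.35) and the complex I subunit NDUFS3 (-0.63) lower and 0 higher at 1.5-fold. Both hold a leading word.

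Ribosomal protein genes hardly differed apart from RPL5. Over 46 members the median was -0.03, 0 were 1.5-fold higher and 1 lower, and with total counts as the only scaling the median was 0.02. RPL5, of the large subunit, went from 21358 to 11171 counts (FPKM 187 and 94.9, log2 ratio -1.03) and holds a 7-base word. RPL3 stood at -0.35 and RPL10A at -0.30, and RPS2, the most abundant by FPKM (965 and 984), at -0.02.

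Other abundant genes that were lower included PTMA, the nuclear protein prothymosin alpha (FPKM 221 and 104, -1.13), the secreted Wnt inhibitor DKK1 (138 and 75.2, -0.92), the membrane-binding annexin ANXA2 (104 and 73.3, -0.55), and TMBIM6, an ER membrane protein (117 and 82.2, -0.55). PTMA holds the joined word, DKK1 and ANXA2 a 7-base word, and TMBIM6 neither. Among abundant genes that were higher, GANAB (FPKM 73.4 and 147, 0.96) and NOLC1, a nucleolar phosphoprotein (80.8 and 123, 0.55), had the highest ratios. SOX10 (0.51), the calcium-binding protein S100A4 (178 and 246, 0.42) and IGFBP4, which binds insulin-like growth factors (125 and 171, 0.40), followed. PAGE5 (0.30), the metalloproteinase inhibitor TIMP3 (0.27), the protease inhibitor SERPINE2 (0.24) and EID1 (0.23) were higher by less. Abundant here means an FPKM of at least 100 in either library. GANAB, NOLC1 and SOX10 reached it only with siLINC01291, and DKK1, ANXA2 and TMBIM6 only with siNC.

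**Figure D5:**
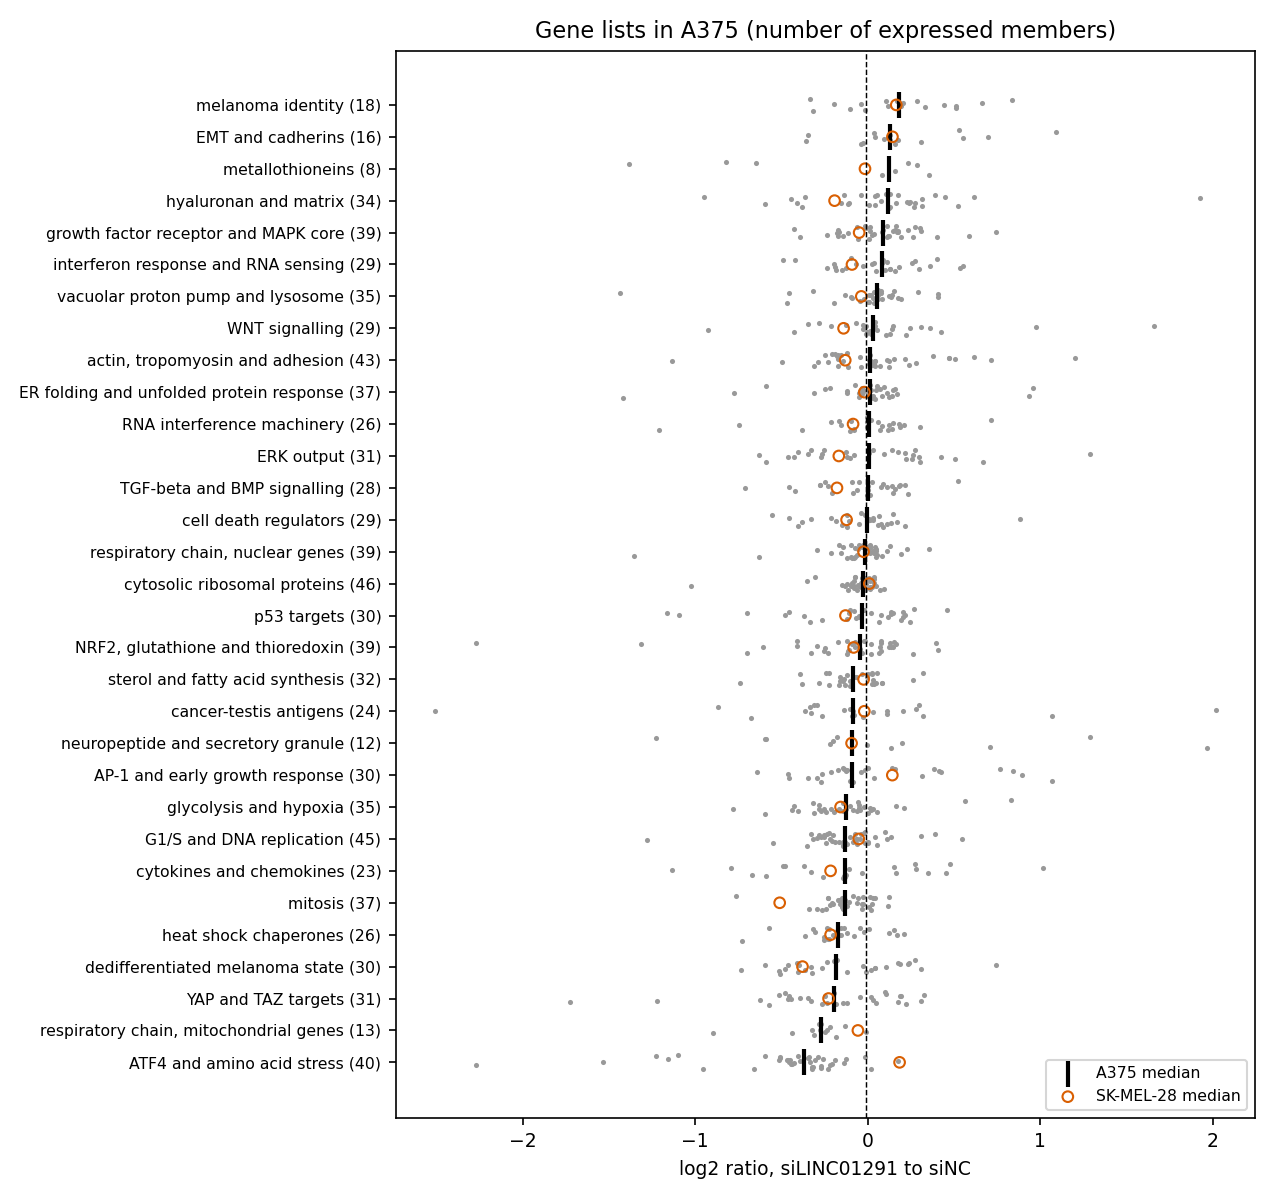
Log2 ratio of siLINC01291 to siNC (x axis) of each expressed member (grey points) of 31 gene lists in A375, with the number of expressed members in brackets. Black bars are the A375 medians, from 0.18 for melanoma identity to -0.37 for the ATF4 list, and open circles the SK-MEL-28 medians.

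The melanoma identity and dedifferentiated lists had medians of opposite sign. The 18 expressed identity genes had a median of 0.18. Of them, 2 were at least 1.5-fold higher and 0 lower, where 3.95 and 3.94% of all expressed genes were. Above 0 lay 12 of the 18, as did 6456 of all 13244 expressed genes. SOX5, a SOX family factor, had 1872 and 3557 counts (0.83), and the calcium-binding S100B 194 and 328 (0.66). SOX10 had 10142 and 15383 (0.51), and the endothelin receptor EDNRB 543 and 826 (0.51). MITF stood at -0.10 (interval -0.21 to 0.01) and PRAME at -0.34. The 30 expressed genes of the dedifferentiated list had a median of -0.19, with 1 higher and 2 lower at 1.5-fold. At an FPKM of at least 5 that median was -0.07, and without the genes that hold a leading 3' UTR word it was -0.10. THBS1, the matrix glycoprotein thrombospondin 1, went from 118595 to 75812 counts (FPKM 418 and 259, -0.74), fibronectin (FN1) from 6917 to 4886 (-0.59), transglutaminase 2 (TGM2) stood at -0.51 and caveolin (CAV1) at -0.48. AXL, a receptor kinase, had FPKM of 125 and 119 (-0.12). ERBB3, which stands on that list and on the growth factor receptor list, was the member that was higher (5572 and 9954 counts, 0.75). The medians of both lists had the same signs in SK-MEL-28 (0.17 and -0.38).

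The YAP and TAZ list had a median of -0.19 over 31 members. It holds targets switched on by the coactivators of the Hippo pathway, and also the regulator genes WWTR1 and TEAD4. At 1.5-fold, where 3.95 and 3.94% of all expressed genes were higher and lower, 0 members were higher and 3 lower. These were ANKRD1, the coactivator gene WWTR1 itself (TAZ, 12806 and 5840 counts, -1.22) and the tissue factor gene F3 (-0.63). CCN2, a matricellular target, went from 4585 to 3284 counts (-0.57) and the partner factor TEAD4 stood at -0.51. WWTR1 carries the joined word 2 times, and ANKRD1, CCN2 and F3 carry no leading word. Without the 5 members that hold a word, the median was -0.22.

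Of 39 receptor and MAPK core genes, 26 lay above 0 (median 0.09), as did 6456 of all 13244 expressed genes. At 1.5-fold 2 were higher, ERBB3 among them, and 0 lower, where 3.95 and 3.94% of all expressed genes were. BRAF stood at 0.17, NRAS at 0.27, IGF1R at -0.18, MET at -0.39 and the kinase MAP2K1 at -0.43. ERK output genes had a median of 0.01 over 31 members, with 2 higher and 2 lower: VGF and the feedback inhibitor SPRY1 (0.67) against UPP1 (-0.63) and the cytokine LIF (-0.59). HMGA1 (-0.12) and CCND1 (-0.12) were abundant and close to 0. Among 30 AP-1 and early growth response genes (median -0.09), 4 were higher and 1 lower. The nuclear receptors NR4A2 (129 and 291 counts, 1.07) and NR4A1 (2080 and 3773, 0.77), MAF and EGR3 (0.84) were higher, whereas JUN went from 3432 to 2346 counts (-0.64) and FOSL1, the most abundant, from an FPKM of 356 to 307 (-0.26). MYC stood at -0.35.

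Secreted factors went both ways, beside 3.95% of all expressed genes at least 1.5-fold higher and 3.94% lower. Of 12 neuropeptide and secretory granule genes, 3 were higher and 3 lower at 1.5-fold (median -0.09, and -0.00 without the genes that hold a leading word). VGF, SCG2, a granin (168 and 294 counts, 0.71), and PCSK1, the prohormone convertase (51 and 219 counts, FPKM 0.307 and 1.28, 1.97), were higher. PCSK1 reached the FPKM minimum only with siLINC01291. STC2, the vasodilator peptide ADM (-0.60) and the granule chaperone SCG5 (-0.59) were lower. Of 23 cytokines and chemokines (median -0.13, but 0.01 at an FPKM of at least 5), IL11 was higher and 4 were lower: CXCL8 (1149 and 557 counts, -1.13), IL18 (-0.79), the receptor chain IL1RAP (-0.67) and LIF. IL18 reached the FPKM minimum only with siNC (1.13 and 0.661), and IL1RAP holds a 7-base word. CXCL1 had 2165 and 2936 counts (0.35). WNT signalling genes had a median of 0.03 over 29 members, with SHISA2 and CDK14 higher and DKK1 lower. TGF-beta and BMP genes had a median of -0.00 over 28, with 0 higher and the receptor BMPR2 lower (-0.71). BMPR2 holds the joined word.

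Matrix and junction genes had medians slightly above 0. Their 1.5-fold counts stand beside 3.95% of all expressed genes higher and 3.94% lower. The hyaluronan and matrix list (34 members, median 0.12) had CEMIP and the laminin LAMA4 (0.62) higher and MMP3, a matrix metalloproteinase (372 and 204 counts, -0.95), and FN1 lower at 1.5-fold. FN1 holds a 7-base word and MMP3 neither. HAS3, a hyaluronan synthase, stood at 0.53 and SPARC, the most abundant, at 0.11. Of 16 EMT and cadherin genes (median 0.13), CLDN1, a tight junction protein (162 and 371 counts, 1.09), and CDH19 (1942 and 3354, 0.70) were higher and 0 lower; ZEB2 stood at 0.55. Of 43 actin, tropomyosin and adhesion genes (median 0.01), TPM4 and the integrins ITGA1 (0.71) and ITGB8 (0.62) were higher. MYH9, the non-muscle myosin heavy chain, went from 26802 to 13010 counts (FPKM 97.1 and 45.7, -1.13) and was the single lower member. TPM1 stood at -0.50, opposite in sign to TPM4.

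Cell cycle genes had medians slightly below 0. Mitosis genes had a median of -0.13 over 37 members, with 29 below 0 (51.3% of all expressed genes were), 0 higher and 1 lower at 1.5-fold (3.94% of all), the checkpoint gene MAD2L1 (4003 and 2514 counts, -0.76). In SK-MEL-28 the median was -0.51, with 15 of 37 lower at 1.5-fold (5.08% of all expressed there). AURKA stood at -0.34, CDC20 at -0.30, PLK1 at -0.24 and MKI67, a proliferation marker, at 0.03. G1/S and replication genes also had a median of -0.13 over 45, with 0 higher and only GINS1 lower. The licensing factor CDT1 stood at -0.55, PCNA at -0.27, CDK6 at 0.54 and the inhibitor CDKN1B at 0.39. p53 targets had a median of -0.04 over 30. FAS, the death receptor (521 and 246 counts, -1.17), GDF15, a stress-induced TGF-beta family cytokine (658 and 327, -1.09), and ZMAT3 (-0.70) were lower, and CDKN1A stood at -0.02 (interval -0.08 to 0.04). FAS holds the joined word, ZMAT3 and the mitosis gene MAD2L1 a 7-base word, and GDF15 neither. Cell death regulators had a median of -0.00 over 29, with 1 higher and 0 lower, and MCL1, which restrains apoptosis, stood at -0.38.

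The ER list did not move as a set. Its 37 expressed members had a median of 0.01, with GANAB and the oxidase ERO1B (367 and 750 counts, 0.94) higher and PDIA6, HERPUD1 (-0.78) and the unfolded protein response factor XBP1 (2178 and 1539 counts, -0.59) lower. PDIA6 holds the joined word, HERPUD1 a 7-base word and XBP1 neither. Higher and lower members of a list here are those past 1.5-fold, as were 3.95 and 3.94% of all expressed genes. Calreticulin (CALR), the most abundant of the ER list, stood at 0.07. The vacuolar pump and lysosome list had a median of 0.05 over 35, with ATP6V1G1 the single lower member. Sterol and fatty acid synthesis genes had a median of -0.08 over 32; HMGCS1, an early sterol synthesis enzyme, was lower (-0.74) and 0 were higher. Glycolysis and hypoxia genes had a median of -0.12 over 35, with 1 higher and 2 lower (ADM and a glucose transporter). The glucose transporters went in opposite directions: SLC2A1 went from 12900 to 7981 counts (-0.78) and SLC2A3 from 1378 to 2612 (0.83). SLC2A1 holds a 7-base word and SLC2A3 neither. Heat shock chaperones had a median of -0.17 over 26, with 21 below 0 (51.3% of all expressed genes were) and HSPA1B (-0.73) lower. HSPA1B and HSPA1A (-0.57) are near-identical copies and uncertain.

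RNA silencing and innate immune genes were close to the other genes. At least 1.5-fold higher and lower were 3.95 and 3.94% of all expressed genes. The RNA interference machinery list had a median of 0.01 over 26. AGO2, the slicing Argonaute (4034 and 2562 counts, -0.75), and the decapping factor DCP1A (2611 and 1200, -1.21) were lower, and the decapping enzyme DCP2 (1991 and 3488, 0.72) was higher. AGO2 holds the joined word 2 times, DCP1A a 7-base word and DCP2 neither. Of 29 interferon response and RNA sensing genes, 0 were higher and 0 lower at 1.5-fold (median 0.08); IRF7 (69 and 109 counts) and ISG20 stood at 0.55 and 0.54, and IRF1 at -0.49. Cancer-testis antigens had a median of -0.09 over 24. SSX2 (51 and 227 counts, 2.02) and MAGEA2 (152 and 342, 1.07) were higher, XAGE1B, MAGEA1 (255 and 169, -0.68) and PAGE1 (-0.87, chosen after its values were seen) lower, and the abundant MAGEA4 stood at -0.03. SSX2, MAGEA2 and XAGE1B have near-identical copies and are uncertain.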

How the data were processed

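RNA was sequenced from 4 libraries, 1 per line and siRNA. Per the labels' protocols, oligo(dT)-enriched RNA was sequenced on an Illumina instrument, and HISAT2 (alignment), StringTie (assembly) and HTSeq (counting) were used. The submitters' processing notes list hg19, DESeq2 and edgeR without a role. The authors deposited raw counts, CPM, FPKM and TPM per gene in a single table; TPM were not used, and deposited FPKM served for levels and the expression minimum. Annotation release and strandedness are not stated in these sources.

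Log2 ratios came from counts with TMM factors over the 4 libraries and a prior count of 2 (edgeR 4.0.16, R 4.3.3; factors 1.05 and 1.09 for A375 siNC and siLINC01291). Intervals are exact binomial 95% intervals of both counts and cover counting error only. Genes outside the table held 0.303 and 0.343% of A375 reads. Thresholds were 2-fold for genes and 1.5-fold for lists. Words of 7 bases in at least 100 genes were searched in the 3' UTRs of at least 50 bases of 1 transcript per gene (GENCODE 29). Python 3.11.15, pandas 2.3.3, numpy 2.4.6, scipy 1.17.1 and matplotlib 3.10.9 were used. The ratios and intervals were run on simulated counts that held counting error only. That run checks the code and cannot show how cultures vary.

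The members and the 35 gene lists, written by hand from general knowledge, were chosen with earlier results of these data known. Named by rule were LINC01291; the 20 highest and 20 lowest ratios with a proper symbol at an FPKM of at least 5; the 10 at either end at an FPKM of at least 100; per list up to 6 members with the largest ratios whose interval leaves out 1, and the most abundant; 10 fixed genes (BRAF, NRAS, IGF1R, MITF, SOX10, AXL, CDKN1A, MKI67, MYC and CCND1); and 2 genes on either side of the FPKM minimum. A few genes that meet this rule are not reported here. Other genes are marked where they were named with their values in view. Other scalings (total counts, DESeq2 1.42.0 size factors, upper quartile), FPKM minimums and prior counts were tried.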

Additional observations from a re-analysis of the deposited data

Results flagged for a closer look

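SRXN1, which codes for sulfiredoxin, differed in opposite directions in the lines, with a log2 ratio of -1.31 in A375 (164 and 69 counts) and of 1.52 in SK-MEL-28. In A375 it reached an FPKM of 1 only with siNC (2.09 and 0.855). It was singled out as the only named gene with an FPKM of at least 1 in either library of both lines whose ratios were at least 1.5-fold in opposite directions, with both counting intervals leaving out 1. The FPKM minimum of that search was set after seeing the data, since a minimum of 5 left no gene. Each line has 1 pair of libraries, so this difference was not tested.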

How the results depend on the processing

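The counts of genes at least 2-fold apart depended on the expression minimum and the prior count. With an FPKM of at least 5 they were 11 higher and 45 lower, with no minimum 308 and 267, and a prior count of 5 gave 75 and 91, against 123 and 140. The other scalings and a prior count of 0.5 stayed within 1.5 times. Without the genes that hold either 3' UTR word (chosen after seeing the data), 119 were higher and 108 lower. Total counts as the only scaling raised all ratios by 0.05. They gave medians of 0.0597 for the ER folding list, 0.0209 for cytosolic ribosomal proteins and 0.10 for the vacuolar pump and lysosome list. Under that scaling the NRF2, p53 target, nuclear respiratory chain, TGF-beta and cell death medians, all within 0.05 of 0, were above 0 as well. With no minimum, the median of the metallothionein list went from 0.12 to -0.28, and with an FPKM of at least 5 that of cytokines went from -0.13 to 0.01 and that of the dedifferentiated list from -0.19 to -0.07. The ATF4 median lay between -0.39 and -0.32 in all 8 alternatives. The shift of genes with the leading word was -0.10 as a difference of medians, against -0.16 as a difference of means. Of 1210 values of the 242 named genes under other scalings and prior counts, 1149 stayed within their counting interval. No paired analysis was possible within A375, because it has 1 library per siRNA; a fit over both lines with the line as a block was not run here. The spread between cultures is unknown, and genes with few counts are limited by depth as well.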
